A study of Mus musculus with 8 samples.

Results

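The 32 genes described here encode subunits of the Polycomb repressive complexes, and were taken by symbol from a table of 55188 entries (55078 symbols once identical repeats were joined). The list follows the composition of the complexes and sets no threshold on values, and every member was found and reached the level needed for testing. Polycomb group proteins keep developmental genes silent, and they act as 2 kinds of complex. PRC2 methylates histone H3 on a lysine of its tail, and PRC1 attaches ubiquitin to histone H2A and compacts chromatin. Both are built around a fixed core to which one of several related proteins is added, so a complex can change its make-up through the exchange of paralogues. In embryonic stem cells they hold lineage genes silent until differentiation.

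Messenger RNA had been sequenced from the mouse embryonic stem cell line 46C, in which green fluorescent protein reports on the neural gene Sox1, and from 46C cells labelled as deleted for Dip2c, which encodes a disco-interacting protein. Wild-type (WT) and knockout (KO) cells were each taken at day 0 in stem cell medium, in one series that went on to day 4 in KSR induction medium and in another that went on to day 6 in N2B27 induction medium. Each of these 8 groups held 1 library, all groups share the 46C background, and the number of knockout clones is not given in the sources used here. Replication therefore came from setting each differentiated library against the day 0 library of its own genotype and series (4 pairs), so that media and labels, not repeats of a condition, supplied the spread, and p-values measure only that spread. Values are FPKM, fragments counted per transcript length and sequencing depth, and are listed with the WT library first. Changes are differences in log2(FPKM + 1) with their standard error, which understate the change of low genes, and a gene was called when the limma p-value, adjusted over 15965 genes by the Benjamini-Hochberg method, was under 0.05.

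FPKM summed to between 508556 and 635836 per library and read depth is unknown. The commonest ratio among low values placed the libraries within 0.973 to 1.16 times the relative depth of the WT KSR day 0 library. Only 10.4 to 17.8% of the low genes of a library held that ratio, so it is a rough guide. Dip2c was read at 2.74 to 5.78 FPKM in all 8 libraries and did not separate the labels. The deleted stretch is not given in the sources used here, so this value per gene does not check the labels, and libraries are named by label. It stood at 3.69 FPKM in the library labelled WT and 3.33 in the library labelled KO at KSR day 0, at 2.74 and 2.91 at N2B27 day 0, at 4.86 and 4.43 at KSR day 4, and at 5.78 and 4.43 at N2B27 day 6. The summed FPKM of 10 naive pluripotency markers fell from 1550 to 1781 at day 0 to 13.8 to 46.4 after differentiation, and all 10 passed the test. Neural progenitor markers went from 181 to 247 up to 651 to 1918 (9 of 10 rose), and neuron markers from 76.4 to 124 up to 127 to 500 (9 of 10 rose, 1 fell). Endoderm markers also went up, from 2.29 to 4.75 to between 80.4 and 329 (8 of 8 tested rose). Within a medium, 5 of these 8 rose at KSR day 4 and 8 at N2B27 day 6. At KSR day 4 Cxcr4 alone made up 71.1 and 43.2 of the summed 106 and 80.4 FPKM. Sox17, Gata4 and Gata6 stood there at only 0.54 to 1.75 FPKM. Smooth muscle and fibroblast markers went from 0.574 to 1.97 up to between 130 and 275 (7 of 7 tested rose). Summed cell cycle genes went from 1656 to 1709 down to 1248 to 1548, with 6 of 15 falling and 1 rising. The neuron marker that fell was Stmn2, read at 69.7 to 115 FPKM at day 0. At N2B27 day 6 the WT and KO libraries stood at 500 and 127 for neuron markers, and at 329 and 173 for endoderm markers. Smooth muscle and fibroblast markers stood there at 150 and 275, and neural progenitor markers at 1918 and 1767. The part of these other cell types and of cycling in the results below was not tested, and in such bulk libraries fewer cells of a type and less RNA per cell cannot be told apart.

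Of the 32 subunit genes, 20 changed with differentiation over the 4 pairs, 10 upward and 10 downward. This share of 62.5% stood beside 54.1% of all genes tested (30.4% rose and 23.7% fell), so the number of changes was near the background, and the median change was -0.07 for the subunit genes and 0.06 for all genes. Those that rose were Phc2, Yaf2, Cbx2, Ring1, Bmi1, Bcor, Rbbp7, Scmh1, Pcgf3 and Ezh2. Those that fell were Suz12, Eed, Pcgf1, Mtf2, Phc1, Rybp, Ezh1, L3mbtl2, Cbx7 and Jarid2. The differentiated libraries lay wholly above the day 0 libraries for the same 10 genes that rose (29.8% of all genes tested lay above), and wholly below for 9 genes (22.6% of all genes), which were 7 of the 10 that fell together with Pcgf6 and Rbbp4. Phc1, Jarid2 and Cbx7 fell although their day 0 and differentiated ranges overlapped. Within several families one paralogue went up while another went down.

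**Figure D1:**
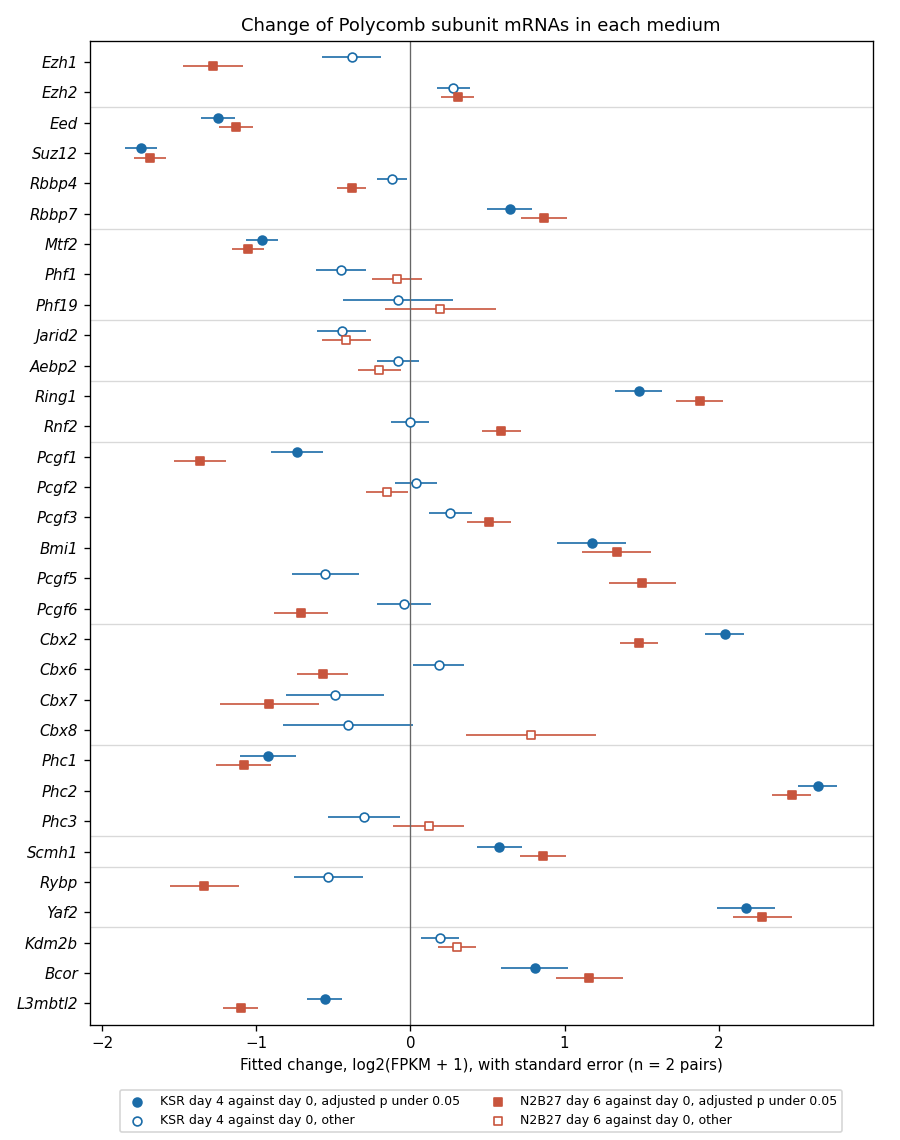
Fitted change of each of the 32 subunit genes on the log2(FPKM + 1) scale (x axis). Circles are KSR day 4 and squares N2B27 day 6, each against day 0 (2 pairs per medium). Bars are standard errors from a fit to all libraries with a shared spread per gene, so they are equal in both media. Filled symbols passed the limma test and grey lines part the families. Suz12, Eed and Mtf2 lie left of 0 and Phc2, Yaf2, Cbx2 and Ring1 right of it in both media, while the Pcgf5 symbols lie on opposite sides.

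In PRC2 the core subunits did not move together. Suz12, the scaffold on which the complex assembles, stood at 72.5 and 79.4 FPKM at KSR day 0 and at 63.6 and 71.8 at N2B27 day 0, against 21.3 and 22.5 at KSR day 4 and 19.7 and 20.8 at N2B27 day 6. All 4 differentiated libraries lay far below all day 0 libraries and close to each other, and the fall was -1.72 ± 0.09 (limma adjusted p = 3.2e-05). Eed, which binds the methyl mark and stimulates the enzyme, went from 157, 153, 140 and 127 FPKM at day 0 (KSR, then N2B27) to 72.6 and 57.3 at KSR day 4 and 62.5 and 58.3 at N2B27 day 6. The ranges did not overlap, with a fall of -1.19 ± 0.10 (adjusted p = 0.000162).

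Ezh2, the main methyltransferase of dividing cells, stayed near its level, at 77.0, 73.2, 74.7 and 62.8 FPKM at day 0 and 93.5, 89.1, 84.3 and 85.6 after differentiation. The differentiated values were all above the day 0 values, by 0.29 ± 0.09 (adjusted p = 0.0366), a rise that did not pass without the WT KSR pair (adjusted p = 0.119), the KO KSR pair (0.106) or the KO N2B27 pair (0.133), nor in a fit without a trend on the mean (0.0834). Its paralogue Ezh1, known for low enzyme activity and for expression in cells that do not divide, went the other way, from 10.9, 14.1, 12.9 and 11 FPKM to 9.35 and 9.19 at KSR day 4 and 3.73 and 4.96 at N2B27 day 6. Its fall of -0.83 ± 0.23 passed (adjusted p = 0.0223), but not without the WT N2B27 pair (0.0599) or the KO N2B27 pair (0.079), nor with no filter on low values (0.0721). Ezh1 fell in N2B27 (-1.28 ± 0.19, adjusted p = 0.00148), and in KSR its change was -0.38 ± 0.19 (adjusted p = 0.143), a difference of -0.90 ± 0.27 between the media that did not pass (adjusted p = 0.113). As a ratio of FPKM, Ezh1 to Ezh2 went from 0.17 ± 0.0214 at day 0 to 0.0763 ± 0.0297 after differentiation (SD, n = 4), and Ezh2 to Suz12 from 1.01 ± 0.137 to 4.18 ± 0.184. Neither pair of ranges overlapped, so the enzyme's transcript went from parity with that of its scaffold to several times its level.

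Rbbp4 and Rbbp7, closely related histone-binding subunits that also serve other chromatin complexes, were measured apart. Rbbp7 was the most abundant of the 32 transcripts in both states, with 155 and 230 FPKM at KSR day 0, 199 and 209 at N2B27 day 0, 266 and 330 at KSR day 4, and 370 and 377 at N2B27 day 6. It rose by 0.76 ± 0.11 (adjusted p = 0.00145), with every differentiated library above every day 0 library. Rbbp4 went from 66.7 ± 5.68 to 55.9 ± 3.34 FPKM (SD, n = 4), a change of -0.25 ± 0.10 that did not pass (adjusted p = 0.0779), although it did within N2B27 (-0.38 ± 0.10, adjusted p = 0.0139). Over the 4 pairs it did pass with scaling by the median ratio (-0.29, adjusted p = 0.033) and with no block for the pairs (adjusted p = 0.048). The N2B27 fall of Rbbp4 did not pass without the WT N2B27 pair (0.0697), or when either KSR pair was left out (0.0772 and 0.0769), and with FPKM scaled to the same sum in every library it was -0.16 (adjusted p = 0.214). The ratio of Rbbp7 to Rbbp4 doubled from 2.98 ± 0.443 to 6.02 ± 0.997.

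The accessory subunits that define the forms of PRC2 changed less evenly. Mtf2, the Polycomb-like protein that brings PRC2 to CpG islands in stem cells, went from 132, 133, 96.1 and 108 FPKM to 69.7 and 65.8 at KSR day 4 and 48.1 and 49.0 at N2B27 day 6. The ranges did not overlap and the fall was -1.01 ± 0.09 (adjusted p = 0.00023). Its relatives were far lower, Phf1 at 5.58 to 8.22 FPKM and Phf19 at 1.10 to 3.23 FPKM over all libraries, and neither passed (-0.27 ± 0.15, adjusted p = 0.172, and 0.06 ± 0.28, adjusted p = 0.873). Mtf2 accordingly held 92.5% ± 1.13 of the summed FPKM of these 3 genes at day 0 and 87.4% ± 3.51 after differentiation. Phf1 shares exon sequence with Cuta on the opposite strand, which was read at 41.6 to 71.1 FPKM, and since the strand of the libraries is not given its reads cannot be told apart there. Jarid2, which helps PRC2 bind chromatin that carries H2A ubiquitin, differed already at day 0, with 69.3 and 69.7 FPKM in the KSR series against 37.9 and 45.2 in the N2B27 series. It went to 49.7 and 52.0 at KSR day 4 and to 35.4 and 26.8 at N2B27 day 6, lower in each of the 4 pairs, by -0.43 ± 0.13 (adjusted p = 0.0262). That call was lost without the WT KSR pair (adjusted p = 0.0881), the KO KSR pair (0.0716) or the KO N2B27 pair (0.0951), and with no block for the pairs (0.178) or no filter on low values (0.0582). With FPKM scaled to the same sum it was -0.30 (adjusted p = 0.131). Aebp2, its partner in the same form of PRC2, stayed at 29.1 to 38.5 FPKM and did not pass (-0.14 ± 0.11, 95% interval -0.42 to 0.13, adjusted p = 0.329).

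In PRC1 the catalytic ring proteins, which transfer ubiquitin to H2A, moved toward equal levels. Ring1 (Ring1A) went from 11.1, 11.4, 9.04 and 11 FPKM at day 0 to 31.8 and 34.6 at KSR day 4 and 42.8 and 36.2 at N2B27 day 6. All differentiated libraries lay well above, by 1.68 ± 0.14 (adjusted p = 0.000192). Rnf2 (Ring1B), the major ring protein of stem cells, went from 45.2 ± 6.67 to 55.7 ± 8.94 FPKM (SD, n = 4), and its change over the 4 pairs did not pass (0.29 ± 0.16, adjusted p = 0.151). In N2B27 Rnf2 rose by 0.59 ± 0.12 (adjusted p = 0.00651), a call lost without the KO N2B27 pair (0.0598). Ring1 held 19.3% ± 3.28 of the summed FPKM of both at day 0 and 39.6% ± 2.59 after differentiation. The sum itself went from 55.8 ± 6.48 to 92.1 ± 12.8 FPKM.

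The Phc proteins, which join PRC1 complexes to each other through a domain that polymerises, gave the plainest exchange. Phc1 was read at 223 and 145 FPKM at KSR day 0, 95.6 and 88.6 at N2B27 day 0, 89.97 and 98.8 at KSR day 4, and 42.1 and 43.8 at N2B27 day 6. Phc2 was read at 20.3, 16.1, 16.9 and 17.8 FPKM at day 0, 124 and 112 at KSR day 4, and 110 and 92.6 at N2B27 day 6. Phc2 was low and even at day 0 and high in every differentiated library, whereas Phc1 was higher in the KSR day 0 pair than in the N2B27 day 0 pair and lower after differentiation in each of the 4 pairs. Phc2 rose by 2.56 ± 0.11 (adjusted p = 1.46e-05), 6.17-fold as a ratio of mean FPKM, and moved from rank 17 to rank 2 of the 32 genes by FPKM. Phc1 fell, by -1.0 ± 0.14 (adjusted p = 0.00138). The share of Phc2 in the summed FPKM of the family went from 12.1% ± 3.78 to 61.3% ± 8.33 and that of Phc1 from 84.7% ± 4.67 to 36.3% ± 8.79. Phc3 stayed low at 2.69 to 6.05 FPKM and did not pass (-0.09 ± 0.18, adjusted p = 0.688). Their sum was 161 ± 63.4 FPKM at day 0 and 183 ± 39.7 after differentiation, a spread wide enough to cover both means.

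The sequence upstream of Phc1 and Phc2 is shown because these genes exchanged places most fully and differ in how many starts they have. RefSeq (GRCm38.p6) lists 1 start for Phc1 and 3 for Phc2, and the 250 bases before each are given 5′ to 3′ on the gene's own strand with CpG dinucleotides in capitals. Phc1 lies on the minus strand at chr6:122340228-122340477, and the Phc2 starts on the plus strand at chr4:128654452-128654701, chr4:128688488-128688737 and chr4:128727321-128727570.
Phc1: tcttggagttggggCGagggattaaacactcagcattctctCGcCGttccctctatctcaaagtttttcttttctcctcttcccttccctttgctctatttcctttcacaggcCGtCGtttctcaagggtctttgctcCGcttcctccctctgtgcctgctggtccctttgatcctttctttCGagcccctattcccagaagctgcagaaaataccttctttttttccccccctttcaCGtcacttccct
Phc2, upstream start: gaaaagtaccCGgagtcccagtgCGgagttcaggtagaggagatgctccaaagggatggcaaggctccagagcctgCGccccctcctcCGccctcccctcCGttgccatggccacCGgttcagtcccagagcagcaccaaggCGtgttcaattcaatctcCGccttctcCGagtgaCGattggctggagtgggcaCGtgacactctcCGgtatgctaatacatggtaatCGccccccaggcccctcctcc
Phc2, middle start: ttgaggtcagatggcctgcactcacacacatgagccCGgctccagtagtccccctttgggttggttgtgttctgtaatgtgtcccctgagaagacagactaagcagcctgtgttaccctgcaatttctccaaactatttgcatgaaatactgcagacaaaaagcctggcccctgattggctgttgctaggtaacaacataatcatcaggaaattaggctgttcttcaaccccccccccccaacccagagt
Phc2, downstream start: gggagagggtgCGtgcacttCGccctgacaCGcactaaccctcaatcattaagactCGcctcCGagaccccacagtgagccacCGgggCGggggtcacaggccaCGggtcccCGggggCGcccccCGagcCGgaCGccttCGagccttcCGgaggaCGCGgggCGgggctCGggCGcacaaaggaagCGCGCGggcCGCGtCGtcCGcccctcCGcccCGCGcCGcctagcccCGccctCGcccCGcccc
The Phc1 stretch holds 8 CpG, and the Phc2 stretches hold 13, 1 and 34 in that order. Over the 41 starts of the 28 subunit genes with an entry the median was 20 CpG, against 6 over all 32851 starts of the table. The letters of the octamer bound by Oct4 and other POU factors (ATGCAAAT, both strands) were in 1 of the 41, the middle start of Phc2, and in 1.60% of all starts. Of the letters of E2F sites, TTTCCCGC was in 2 of the 41, those of Phf19 and Suz12 (0.895% of all starts), and TTTGGCGC in 0 (0.417% of all). The motifs do not overlap, these matches are letters and not sites, and FPKM per gene does not tell which Phc2 start was read. Cbx2, Pcgf1, Rybp and Yaf2 have no entry.

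**Figure D2:**
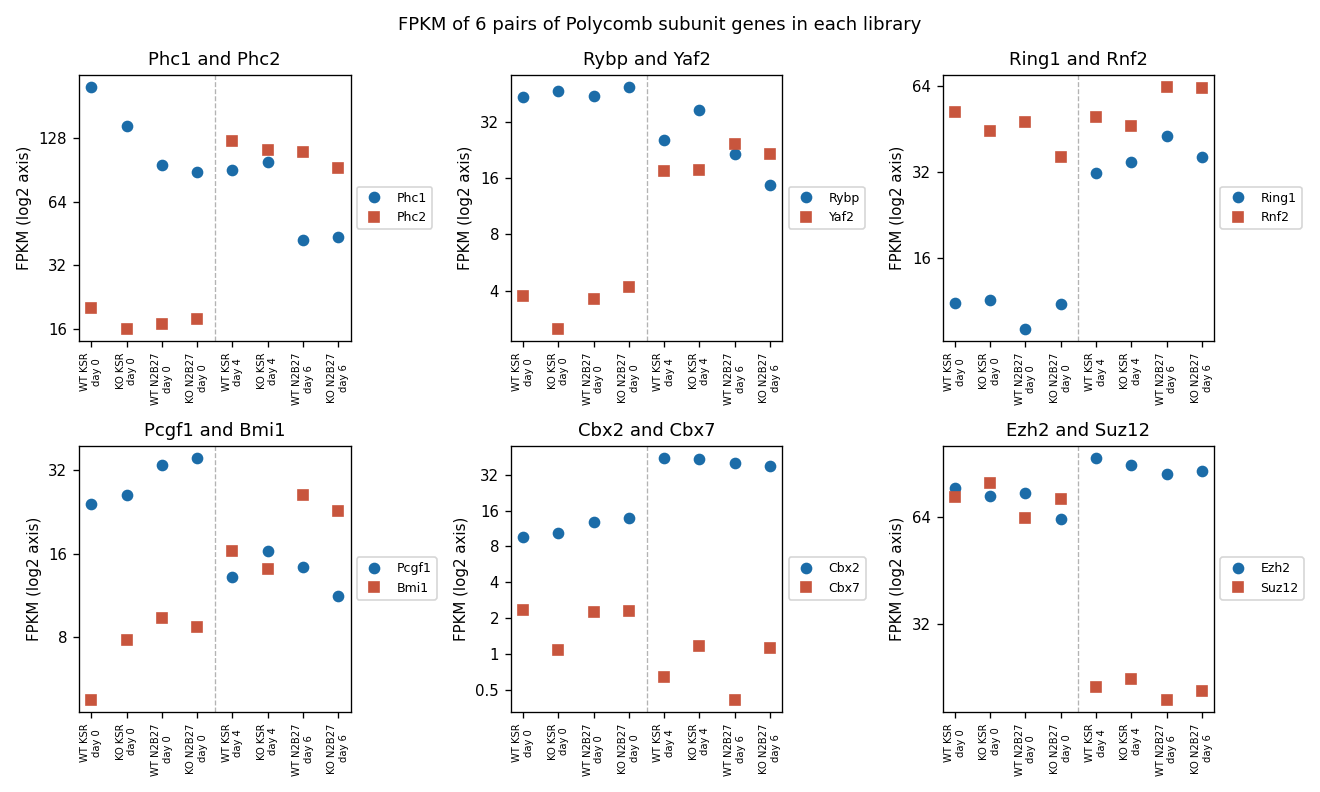
FPKM on a log2 axis (y) of 6 pairs of subunit genes in each of the 8 libraries (x), with day 0 left and differentiated libraries right of the dashed line; each point is 1 library. Phc2 and Yaf2 go from far below Phc1 and Rybp to above Phc1 in every differentiated library for Phc2, and for Yaf2 to above Rybp at N2B27 day 6 but below it at KSR day 4, and Ezh2 parts from Suz12 in all 4 differentiated libraries.

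Rybp and Yaf2 are related proteins that take the place of a Cbx protein in the variant forms of PRC1 and stimulate ubiquitin transfer. Yaf2 went from 3.77, 2.51, 3.63 and 4.19 FPKM at day 0 to 17.4 and 17.6 at KSR day 4 and 24.3 and 21.5 at N2B27 day 6, a rise of 2.23 ± 0.15 (adjusted p = 6.6e-05). Rybp went from 43.2, 46.5, 43.9 and 48.9 FPKM to 25.6 and 36.7 at KSR day 4 and 21.4 and 14.7 at N2B27 day 6, a fall of -0.94 ± 0.21 (adjusted p = 0.0101). Neither gene's ranges overlapped, and Yaf2 exceeded Rybp in both N2B27 day 6 libraries and in none of the others. The share of Yaf2 in their summed FPKM went from 7.17% ± 1.37 to 46.4% ± 12.2. The sum was 49.2 ± 2.79 FPKM at day 0 and 44.8 ± 7.49 after differentiation. In KSR it went from 46.9 to 43.0 FPKM in the WT pair and from 49.0 to 54.3 in the KO pair. In N2B27 it went from 47.6 to 45.8 and from 53.1 to 36.2, so gain and loss did not balance in every pair. Rybp shares 99.3% identity over 681 bases with Rybp-ps, itself read at 11.02 to 25.7 FPKM and lower in all differentiated libraries, so the division of reads between them is uncertain.

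The Pcgf proteins pair with the ring proteins and name the forms of PRC1. Pcgf2 (Mel18), which with Bmi1 belongs to the canonical forms that carry Cbx and Phc proteins, was the most abundant in every library, at 59.4 to 81.0 FPKM. It did not change over the 4 pairs beyond its spread (-0.06 ± 0.11, 95% interval -0.31 to 0.19, adjusted p = 0.658) and held 47.9% ± 4.14 and 48.3% ± 4.86 of the family's summed FPKM. Bmi1 (Pcgf4) went from 4.77, 7.84, 9.37 and 8.67 FPKM to 16.3 and 14.1 at KSR day 4 and 25.9 and 22.8 at N2B27 day 6. Its ranges did not overlap, it rose by 1.26 ± 0.16 (adjusted p = 0.00101), and its share went from 4.98% ± 1.04 to 13.6% ± 3.72. Pcgf1, of the variant form with Bcor and Kdm2b, went the other way, from 24.1, 26.1, 33.3 and 35.4 FPKM to 13.2, 16.3, 14.4 and 11.3, with no overlap. The fall of Pcgf1 was -1.05 ± 0.17 (adjusted p = 0.00258) and its share went from 19.4% ± 2.45 to 9.46% ± 1.07. Bmi1 was below Pcgf1 in all 4 day 0 libraries and above it in 3 of the 4 differentiated ones, all but the library labelled KO at KSR day 4.

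Pcgf3 and Pcgf5 belong to one related variant form. Pcgf3 went from 11.8 ± 0.861 to 15.7 ± 2.14 FPKM (SD, n = 4), a rise of 0.38 ± 0.13 without overlap (adjusted p = 0.0399) that was lost when any 1 of the 4 pairs was left out (adjusted p 0.0698 to 0.103), with no filter on low values (0.0519) and with scaling by the median ratio (0.0665). Pcgf5 was the only subunit gene called for a difference in change between the media. With FPKM scaled to the same sum Rnf2 was called as well (0.78, adjusted p = 0.044). Pcgf5 stood at 5.84 and 3.83 FPKM at KSR day 0, 3.15 and 2.70 at KSR day 4, 1.98 and 2.38 at N2B27 day 0 and 8.84 and 7.26 at N2B27 day 6. The values were thus lower after differentiation in both KSR pairs and higher in both N2B27 pairs. Pcgf5 rose by 1.5 ± 0.22 in N2B27 (adjusted p = 0.0012), and in KSR its change of -0.55 ± 0.22 did not pass (adjusted p = 0.0727). The difference, 2.06 ± 0.31, passed (adjusted p = 0.0276), but not without the WT KSR pair (0.211), the KO KSR pair (0.16), the WT N2B27 pair (0.148) or the KO N2B27 pair (0.0844), nor with no filter on low values (0.0926). Part of this difference lay in day 0, where the KSR libraries held 2.21 times the Pcgf5 FPKM of the N2B27 libraries. Pcgf6, of the variant form with L3mbtl2 that silences germ cell genes in stem cells, went from 23.0, 22.9, 35.4 and 26.0 to 22.1, 22.5, 16.5 and 19.96 FPKM, without overlap and without passing over the 4 pairs (-0.37 ± 0.19, adjusted p = 0.135). In N2B27 Pcgf6 fell by 0.71 on the log2 scale (adjusted p = 0.0123), and without the WT N2B27 pair the value was -0.36 and did not pass (adjusted p = 0.1).

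**Figure D3:**
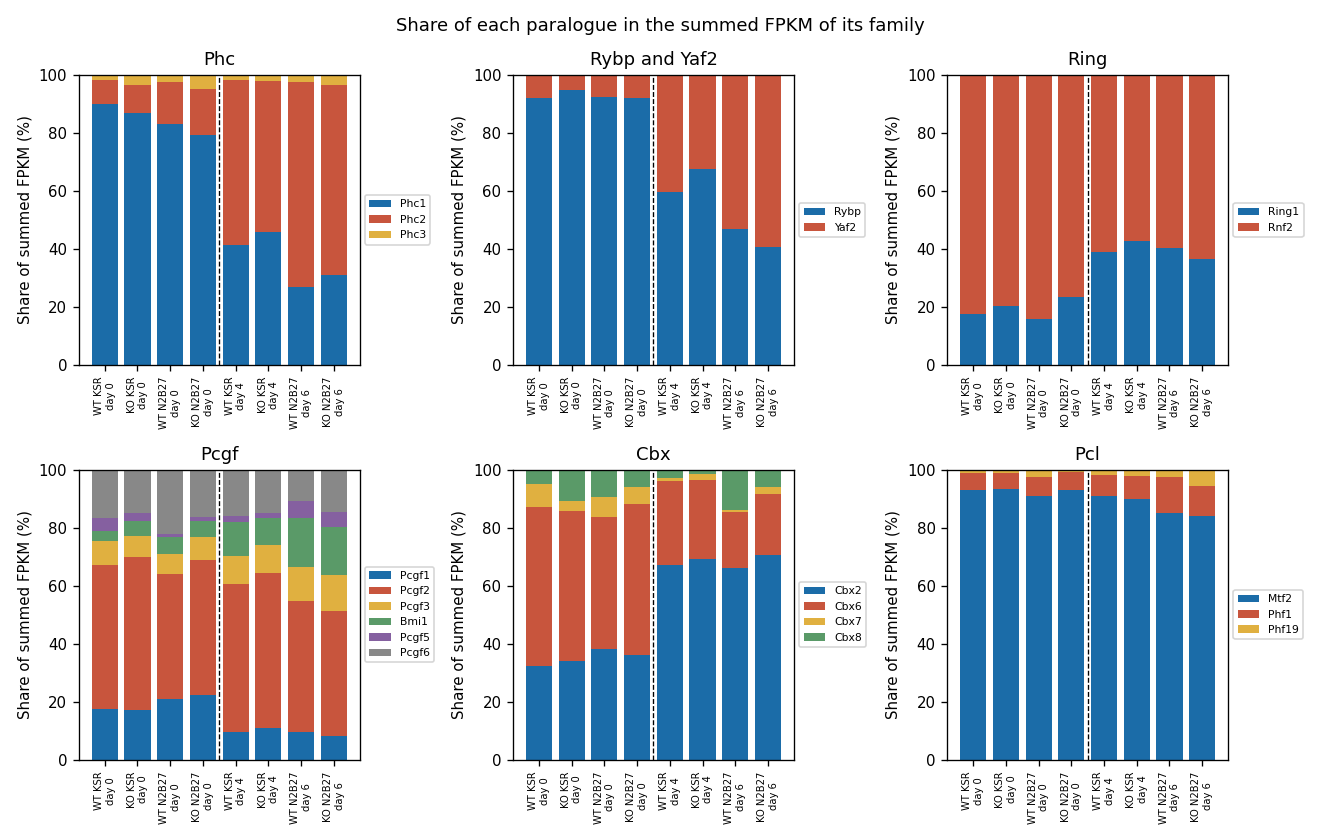
Share of each paralogue in the summed FPKM of the members of its family among the 32 genes (y axis, percent) in each library (x axis), with day 0 left and differentiated libraries right of the dashed line. The shares of Phc2, Yaf2, Ring1, Bmi1 and Cbx2 are larger in each differentiated library than in any day 0 library, while Pcgf2 holds about the same share on both sides.

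Among the Cbx proteins, which bind the methyl mark laid down by PRC2 and so bring canonical PRC1 to it, Cbx2 took over. Cbx2 also compacts chromatin. It went from 9.56, 10.4, 12.7 and 13.9 FPKM at day 0 to 44.7 and 43.5 at KSR day 4 and 40.4 and 37.8 at N2B27 day 6. All differentiated libraries lay well above, by 1.76 ± 0.15 (adjusted p = 0.000187). Cbx7, known as the main Cbx of stem cell PRC1, was low in these libraries, at 2.35, 1.07, 2.25 and 2.28 FPKM at day 0 and 0.635, 1.15, 0.413 and 1.12 after differentiation. Its values overlapped, since the library labelled KO at KSR day 0 was already low, and the fall of -0.70 ± 0.25 barely passed (adjusted p = 0.0499). It did not pass without the WT KSR pair (0.158), the WT N2B27 pair (0.156) or the KO N2B27 pair (0.112), nor with a pseudocount of 0.1 FPKM, where it was -1.20 (adjusted p = 0.055), or of 0.5 FPKM (0.0504), with no filter (0.127) or with FPKM scaled to the same sum (0.063). Apobec3, on the strand opposite to Cbx7 with shared exon sequence, was read at 11.9 to 16.2 FPKM at day 0 and 0.916 to 3.81 after differentiation, so Cbx7 reads are uncertain. Cbx6 went from 16.9 ± 2.29 to 14.9 ± 3.93 FPKM (-0.19 ± 0.19, adjusted p = 0.422) and Cbx8 from 2.55 ± 0.875 to 3.68 ± 3.32 (0.19 ± 0.35, adjusted p = 0.67), and neither passed. In N2B27 Cbx6 fell by 0.57 on the log2 scale (adjusted p = 0.0238), but with the KO N2B27 pair left out the value was -0.34 (adjusted p = 0.143) and with FPKM scaled to the same sum -0.36 (0.159). The call was also lost without the WT KSR pair (0.0644), the KO KSR pair (0.0632) or a filter on low values (0.0552). Cbx6 shares all of a 563-base stretch with Npcd on the same strand. Npcd stood at 0.445 to 1.47 FPKM at day 0 and at 0.927 to 1.38 at KSR day 4. At N2B27 day 6 Npcd stood at 2.67 and 3.98 FPKM, and the division of reads between it and Cbx6 is uncertain. Of the summed FPKM of these 4 Cbx genes, Cbx2 held 35.1% ± 2.41 at day 0 and 68.2% ± 2.05 after differentiation. Cbx7 held 6.02% ± 1.88 and 1.39% ± 0.681, and Cbx6, the largest share at day 0, went from 51.1% ± 3.77 to 24.2% ± 4.65. Their sum went from 33.1 ± 4.17 to 61.0 ± 5.48 FPKM.

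Of the remaining PRC1 proteins, Bcor, a corepressor of the Pcgf1 form, went from 6.20, 9.14, 7.64 and 10.9 FPKM to 12.8, 15.1, 24.1 and 19.4, while Pcgf1 itself fell. Bcor rose by 0.98 ± 0.17 without overlap (adjusted p = 0.00361). Kdm2b, which recruits that form to CpG islands through its zinc finger, stood at 41.6 and 52.9 FPKM at KSR day 0 and 23.6 and 29.1 at N2B27 day 0, and at 51.7, 55.9, 27.6 and 38.5 after differentiation. It was higher in each of the 4 pairs, by 0.25 ± 0.10, and did not pass (adjusted p = 0.0777), though with FPKM scaled to the same sum it did (0.39, adjusted p = 0.0231). Kdm2b shares all of a 615-base stretch with Gm12397, read at 24.7 to 49.9 FPKM, and exon sequence with the antisense gene Rnf34, so its FPKM is uncertain. L3mbtl2, of the Pcgf6 form, went from 39.0, 39.2, 40.6 and 40.6 FPKM, an even level, to 26.1 and 26.4 at KSR day 4 and 17.3 and 19.6 at N2B27 day 6. It fell by -0.83 ± 0.14 (adjusted p = 0.00344), without overlap. Scmh1, a relative of the fly protein Sex comb on midleg that binds Phc proteins, rose from 7.90 ± 0.824 to 13.8 ± 2.86 FPKM (0.72 ± 0.13, adjusted p = 0.00442).

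Set apart by medium, 14 subunit genes were called at KSR day 4 (8 rose, 6 fell), 43.8% beside 48.5% of all genes tested, of which 28.5% rose and 20% fell. At N2B27 day 6 there were 24 (12 rose, 12 fell), 75% beside 55.9% of all genes, of which 29.7% rose and 26.2% fell. These counts rest on 2 pairs each: without the WT KSR pair 7 passed at KSR day 4 and without the KO KSR pair 9, where the remaining pair is assumed to vary like the other groups. The calls lost at KSR day 4 on leaving out 1 pair were Rbbp7, Pcgf1, Bmi1, Phc1, Scmh1, Bcor and L3mbtl2, and the value of Phc1 there went from -0.92 to -0.55 and that of Bmi1 from 1.18 to 0.77 without the WT KSR pair. At N2B27 day 6 leaving out any 1 pair left 20 calls, of which 18 (without the WT N2B27 pair) or 20 were among the 24, and those lost in at least 1 case were Ezh2, Rbbp4, Rnf2, Pcgf3, Bmi1, Pcgf6, Cbx6, Cbx7 and Phc1. Ezh2, which had risen by 0.31, was at 0.17 without the KO N2B27 pair. Phc2, Yaf2, Cbx2, Ring1, Suz12, Eed and Mtf2 were called in both media and under every alternative tried. With FPKM scaled to the same sum in every library, which moves the median of all genes in N2B27 from 0.04 to 0.25, the split in N2B27 became 13 up and 9 down for the subunit genes, and 6007 up and 3223 down in place of 4736 and 4183 for all genes. For the difference between the media 1 subunit gene was called, Pcgf5 (3.12% beside 3.97% of all genes, 1.75% upward and 2.22% downward in N2B27 relative to KSR), and 9 had an unadjusted p under 0.05 (28.1% beside 23.8%). The standard errors by medium come from a fit to all libraries with a shared spread per gene. They do not measure the spread between the pairs of that medium. Medium and day of sampling cannot be told apart.

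The 2 day 0 series, both in stem cell medium, differed for some of these genes. Phc1, Jarid2, Kdm2b and Pcgf5 were without overlap at least 1.5 times higher in the KSR than in the N2B27 series, which is 12.5% of the subunit genes and compares with 21.2% of all genes tested (in either direction). The ratios were 2 for Phc1, 1.67 for Jarid2, 1.79 for Kdm2b and 2.21 for Pcgf5. No test was made on 2 libraries a side. For Phc1 the N2B27 day 0 values lay within the range of those at KSR day 4 or just below it.

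The series title asks what Dip2c deletion does to neural differentiation, and for these genes no difference between the labels was called. Between KO and WT libraries over the 4 conditions 0 of 32 subunit genes were called by limma (background 0.00626% of genes tested, 1 gene), and 1, Kdm2b, had an unadjusted p under 0.05 (background 4.35%). Kdm2b was higher in the library labelled KO in each of the 4 conditions, by 0.11 to 0.47, with a fitted difference of 0.30 ± 0.09 (adjusted p = 0.945). Phc3 had the largest fitted difference, 0.38 ± 0.16, also higher in all 4 (adjusted p = 0.945), at under 7 FPKM. Eed and Rnf2 were lower and Suz12, Rbbp4, Rbbp7, Phc3, Kdm2b and L3mbtl2 higher in the KO library in every condition, 8 of 32 genes or 25% beside 12.2% of all genes tested. This count asks only for the same sign and sets no size. L3mbtl2 entered it with differences of 0.0004 to 0.18 and Rbbp4 with 0.05 to 0.14. Whether the 2 shares differ was not tested. Suz12 differed by no more than 0.17 in any condition, a fraction of its fall with differentiation. The labels also differed in the Y-linked genes Eif2s3y, Ddx3y and Uty, at 0 in all 4 KO libraries. Eif2s3y stood at 7.03 to 14.9 FPKM in the WT libraries. An effect of the deletion cannot be told apart from whatever else differs between the labels. For the difference between the responses of KO and WT cells 0 genes were called (background 0%). That fit holds no term for medium, so a difference between the media widens its error. For Pcgf5 the standard error was 0.96 there, against 0.31 for its difference between the media. The lack of calls therefore does not show that the responses were alike. Of the subunit genes 0 had an unadjusted p under 0.05 (background 1.04%). The median standard error was 0.32, and 95% intervals reached well beyond it, from -0.40 to 0.67 for Ezh2 and from -2.45 to 2.35 for Pcgf5. Differences well above 0.32 could therefore go undetected. Cbx8 showed the widest fitted difference in response, -1.06 with a 95% interval of -2.65 to 0.52, at 1.05 to 8.46 FPKM.

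**Figure D4:**
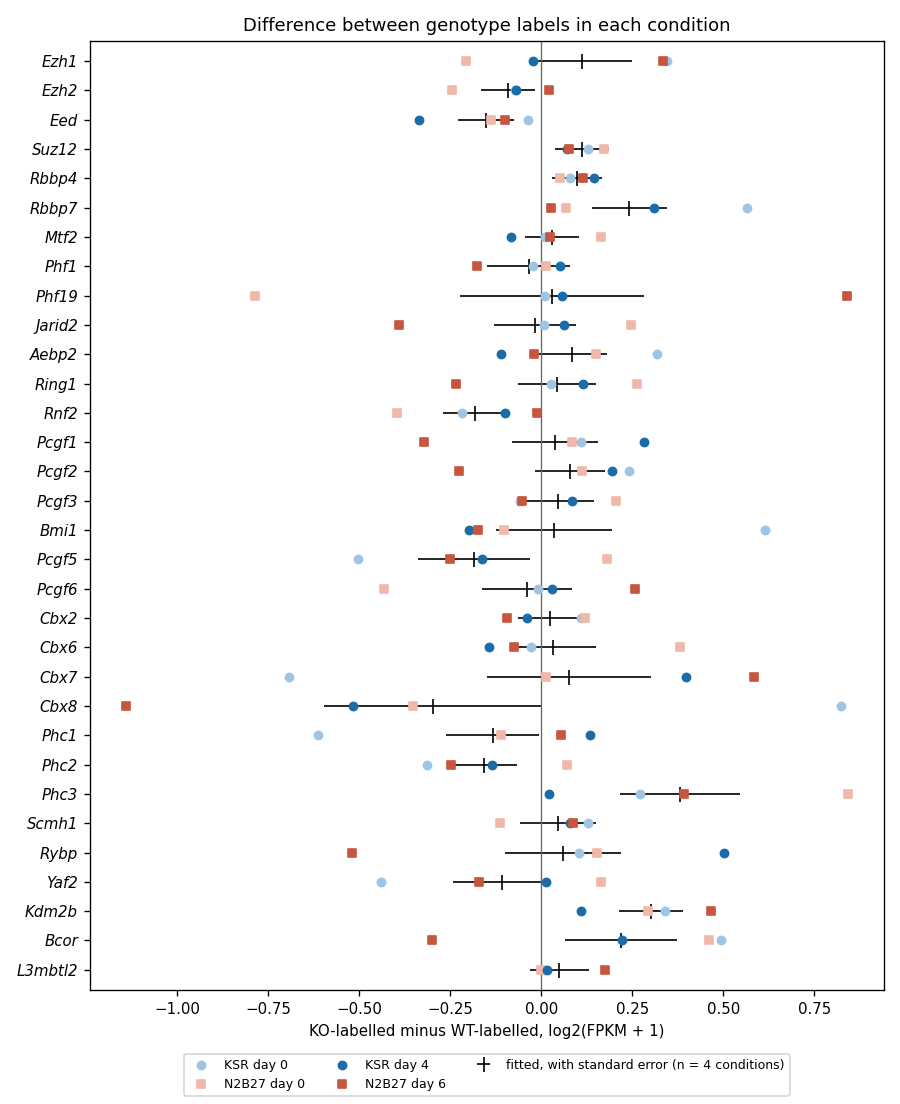
Difference between the libraries labelled KO and WT in log2(FPKM + 1) (x axis) for each subunit gene, with 1 symbol per condition and the fitted value and its standard error over 4 conditions in black. Symbols fall on both sides of 0 for 24 of the 32 genes, and Kdm2b and Phc3 lie to the right of 0 in all 4 conditions.

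Other genes that work with these complexes, were listed by role. Of 22 tested genes associated with PRC1, 7 rose and 6 fell, and of 4 associated with PRC2, 1 rose and 1 fell, counts near the background of 30.4% rising and 23.7% falling among all genes. In the same form as Pcgf3 and Pcgf5, Auts2, an activator of the neural lineage, rose by 2.18 ± 0.20, from 10.4 ± 2.14 to 52.0 ± 18.3 FPKM, and its relative Fbrsl1 fell by -1.48 ± 0.14, from 93.9 ± 14.6 to 32.8 ± 2.79. In the Pcgf6 form the DNA-binding protein E2f6 rose by 1.45 ± 0.13 and the WD40 protein Wdr5, which also serves activating methyltransferases, fell by -1.62 ± 0.12, from 121 ± 7.22 to 38.8 ± 5.33 FPKM. Of the proteins with MBT repeats, L3mbtl3 rose by 1.93 ± 0.16 and Sfmbt1 by 1.39 ± 0.15, and Scml2 fell by -1.20 ± 0.23. AU022751, which RefSeq names Ezhip, an inhibitor of PRC2, fell by -1.22 ± 0.30 (adjusted p = 0.0132), a call lost without the KO N2B27 pair (adjusted p = 0.0538) or with no filter on low values (0.0601). All other changes named here had an adjusted p under 0.01.

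Of 11 listed genes of the H2A deubiquitinase complexes, most of them partners and not enzymes, 7 rose and 1 fell over the 4 pairs, with a median of 0.46 beside 0.06 for all genes, of which 30.4% rose and 23.7% fell. At KSR day 4 7 rose and 1 fell, beside 28.5% and 20% of all genes. At N2B27 day 6 5 rose and 1 fell, beside 29.7% and 26.2%. Asxl2 was the gene that fell, by -0.79 ± 0.14 over the 4 pairs (adjusted p = 0.00373). The deubiquitinases themselves, Bap1 and Usp16, were singled out after their values were seen. Bap1 rose by 0.70 ± 0.10 (adjusted p = 0.00183) and Usp16 by 0.39 ± 0.12 (adjusted p = 0.0331). Within a single medium Usp16 did not pass (adjusted p = 0.203 in KSR and 0.126 in N2B27). Of the partners, Mbd5 rose by 1.38 ± 0.17 and Foxk1 by 1.21 ± 0.18, and Asxl3 went from 0.0622 ± 0.0773 to 1.26 ± 0.619 FPKM, a rise of 1.05 ± 0.22 that was 3.04 with a pseudocount of 0.1 FPKM. Of the demethylases that remove the methyl mark of PRC2, Kdm6a rose by 0.84 ± 0.12 (adjusted p = 0.00177), from 18.7 ± 3.33 to 33.9 ± 1.22 FPKM. Kdm6b rose by 0.45 ± 0.15 (adjusted p = 0.0376), from 22.1 ± 2.19 to 30.8 ± 4.73 FPKM. Within N2B27 Kdm6b rose by 0.73 ± 0.12 (adjusted p = 0.00192), and within KSR it did not pass (0.18 ± 0.12, adjusted p = 0.247).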

How the data were processed

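FPKM of 8 libraries, keyed by gene symbol, come from the single table the authors deposited. STAR, Cufflinks and the build mm10 are named in the submitters' processing notes. Versions, settings and the strand of the libraries are not given there. Per the labels' protocols, a SMARTer kit was used on total RNA. Columns were matched to samples by title. Titles and descriptions disagree for 4 samples, where genotype labels match the title, and the column of the WT N2B27 library names day 7 where its title gives day 6. Eif2s3y, Ddx3y and Uty were at 0 in the 4 libraries labelled KO.

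Identical repeated symbols (110) were joined. Genes with at least 1 FPKM in at least 2 libraries were fitted as log2(FPKM + 1) with limma 3.58.1 (R 4.3.3, eBayes with trend), with pairs of one genotype and series, or conditions, as blocks, for 6 comparisons. The pairing comes from the titles, which place each differentiated library with the day 0 library of its own genotype and series. Without it 20 subunit genes were called for differentiation, 19 of them shared with the 20 called with it (Jarid2 was lost and Rbbp4 gained). The genes and lists were chosen with earlier results of these data known. Named beyond the 32 genes are listed Polycomb genes past the test with a change of at least 1, with Kdm6a and Kdm6b always. Bap1, Usp16 and Asxl2 are named outside this rule. The values of 1 further gene of these lists are not reported here, and it stays out of counts and shares. Near copies were sought with BLAST 2.17.0 (at least 90% identity over 300 bases), and Python 3.11.15 was used for the rest. The fits were tested on simulated data. Depth cannot be had from FPKM, so no counting interval is given. Other pseudocounts, filters, scalings, a fit without trend and left-out pairs were tried.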

Additional observations from a re-analysis of the deposited data

Results flagged for a closer look

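Of 96 groups of 4 values examined, 5 held a value far from the other 3, about as many as the 1 in 20 that chance gives. Phf19 stood at 3.23 FPKM in the library labelled KO at N2B27 day 6, above the other differentiated libraries. Ring1 stood at 9.04 FPKM in the WT N2B27 day 0 library, below the other day 0 libraries. Cbx6 stood at 20.3 FPKM in the KO N2B27 day 0 library, above the others, and Cbx7 at 1.07 FPKM in the KO KSR day 0 library, below them. The change of Pcgf2 in the KO N2B27 pair was -0.32 on the log2(FPKM + 1) scale, while its other 3 pairs lay close together.

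Between the media the change of Pcgf5 differed by 2.06, by the limma test of the difference itself. Cbx6 went up in both KSR pairs and down in both N2B27 pairs, a difference of -0.75 that did not pass the test (adjusted p = 0.12).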

How the results depend on the processing

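Over 4 pairs 15 of the 20 calls among the subunit genes were kept under every alternative, as were 7 of 14 at KSR day 4 and 15 of 24 at N2B27 day 6. No call changed direction. The number called over 4 pairs was 15 to 20, and it was 20 with no block for the pairs, 19 of them shared. At KSR day 4 the count of 14 became 7 to 17 with 1 pair left out. The single call between the media, Pcgf5, became 0 with no filter on low values, 0 with a mean of at least 5 FPKM (a set without Pcgf5), 2 with FPKM scaled to the same sum in every library, and 0 with any 1 pair left out. Between labels, and between the responses of the labels, the count was 0 under every alternative. Block or no block made no difference to the label count. Each condition has 1 library, depth is unknown, and FPKM is relative, so scaling to the same sum moves the median of all genes over 4 pairs from 0.06 to 0.19.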
